A study of Zea mays with 2 samples.

Results

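The group described here holds 74 maize gene models whose transcripts were abundant in dek44 mutant endosperm and scarce by comparison in wild type. Members were chosen from the values themselves: an RPKM (reads scaled to the length of the gene model and to the size of the library) of at least 100 in dek44, an RPKM above 0 in wild type and a dek44 to wild-type ratio of at least 10. Of 41406 gene models in the table, 81 met these thresholds, and 7 of them were set aside by name. The level and the fold of a member are therefore descriptions and were not tested. Among the 2000 genes with a dek44 RPKM of at least 100 and a wild-type RPKM above 0, the ratio reached 10 in 4.05%, a share that the rule itself fixes; among 29533 expressed genes (an RPKM of at least 1 in either library) above 0 in wild type it did so in 5.18%.

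The study profiled mRNA from endosperm of Zea mays kernels at 15 days after pollination. The dek44 defective kernel mutant gave 1 library and wild type gave 1, each deposited as 1 column of values. The series text speaks of triplicates, but no replicate values were used here, and the sources used here do not say whether a column pools several kernels or plants. No allele or genetic background is given in the labels. The recovered library size was 22612657 reads in dek44, against 20861135 in wild type. With 1 library per genotype no difference has a replicate check. Each 95% interval below is an exact conditional binomial (Clopper-Pearson) interval that covers counting error only. It uses the smallest whole reads that fit the values of a gene. Where the true reads are a multiple of these, the interval is wider than counting error alone. Reads given below for single genes are likewise the smallest.

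Endosperm feeds the embryo and the seedling. Its starchy cells make zeins and starch, its aleurone surrounds them, and its basal transfer layer takes up sugars and other nutrients from the mother plant. The Dek44 gene is known to encode a protein of the mitochondrial ribosome, which translates a few subunits of the respiratory chain. Plant cells with poor respiration are known to change the transcription of many nuclear genes, a response called retrograde signalling. Among the named members are genes for a mitochondrial membrane scaffold, for sugar phosphorylation, for cell wall loosening, for lipid transfer, for small secreted peptides of the transfer layer and for vitamin synthesis. Most members have no name in the gene table used, so no role is given to them.

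The labelled tissue was checked against fixed marker lists. All 11 gene models matched to 10 starchy endosperm symbols were above 0 in both libraries. Their summed RPKM was 39751 in dek44, against 193359 in wild type. On the log2(RPKM + 1) scale, 9 of them were lower by 2-fold or more in dek44. Markers of the embryo summed to 512 RPKM in dek44, against 404 RPKM in wild type over 7 genes. Of 5 expressed ones, 2 were at least 2-fold higher, ocl1 and a gene with the symbol GLB1 (GRMZM2G067402). The latter also carries haemoglobin names and was counted by its symbol only. The globulin-1 gene itself (GRMZM2G067919) had 40.4 RPKM in dek44, against 23.9 RPKM in wild type. Markers of the aleurone summed to 380 RPKM in dek44, against 332 RPKM in wild type over 6 genes, with 1 higher and 1 lower. The green tissue list had 2 matched genes, 1 of them at least 2-fold higher, summing to 31.2 RPKM in dek44, against 5.40 RPKM in wild type. Of all expressed genes, 31.6% were at least 2-fold higher in dek44 and 3.7% at least 2-fold lower. The embryo, aleurone and green tissue lists are too short to be set apart from these shares. RNA per cell and the number of cells of each type cannot be told apart in such bulk tissue.

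The members together made up 3.04% of summed RPKM in dek44 and 0.123% in wild type. Their summed RPKM was 23.5-fold higher in dek44. RPKM divides reads by length; in undivided reads the members held at least 1.86% of the dek44 library and at least 0.0887% of the wild-type library. By contrast, 36 genes with a wild-type RPKM of at least 100 were at least 10-fold lower in dek44, and these made up 0.96% of summed RPKM in dek44 and 11.5% in wild type. On the deposited scale the members outnumbered these genes and held a smaller share of the library in which they were abundant. With the ratios rescaled, 46 to 65 members were still at least 10-fold higher. The genes lower in dek44 were not recounted, so which set is larger after rescaling was not tested.

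**Figure D1:**
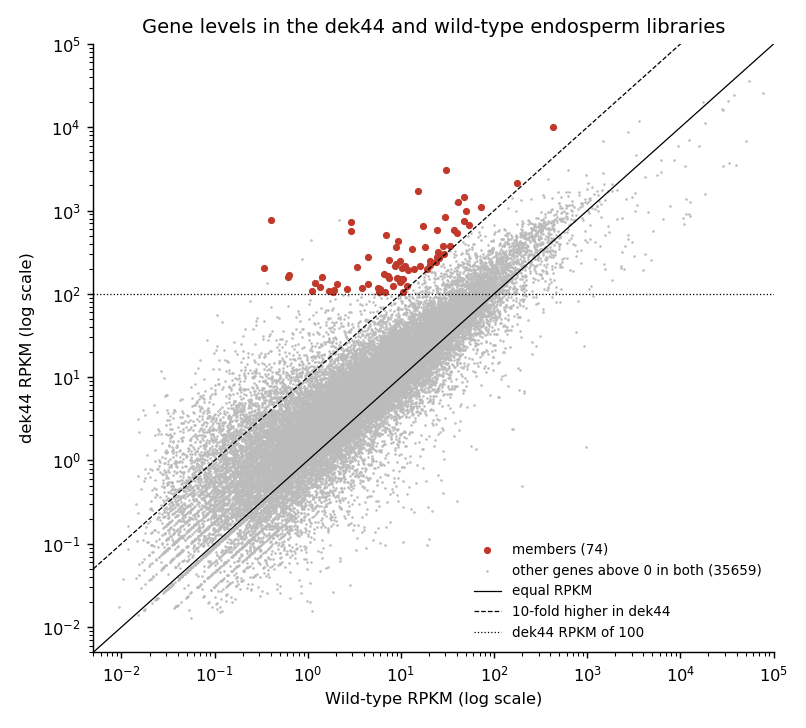
RPKM of each gene above 0 in both libraries, with dek44 on the vertical and wild type on the horizontal axis, both logarithmic. Red points are the 74 members and grey points are 35659 other genes; the members fill the corner above a dek44 RPKM of 100 (dotted) and a 10-fold ratio (dashed), apart from grey points there that were set aside by name.

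Single members reached very high ranks in dek44. The median rank of the members was 890 by dek44 RPKM and 10558 by wild-type RPKM. Of the 74, 7 were among the 100 most abundant genes of dek44 and 0 among the 100 most abundant of wild type. Within the first 1000 genes, 44 members were found in dek44 and 2 in wild type. The median member had 220 RPKM in dek44, against 10.1 RPKM in wild type, with ranges of 104 to 10168 in dek44 and 0.343 to 430 in wild type. Members were 2.99% of the 1004 genes with a dek44 RPKM from 100 to 200, 3.73% of 670 genes from 200 to 500, 5.48% of 219 genes from 500 to 1000 and 6.54% of 107 genes above 1000. The rule uses the same dek44 RPKM for its level and ratio, so this series is a description and was not tested. Genes set aside by name stay in these totals.

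One gene held the largest part of the members' RPKM. GRMZM2G091054 had 10168 RPKM in dek44, against 430 RPKM in wild type, which is rank 10 in the mutant library, against rank 233 in wild type. Its smallest recovered reads were 76566 in dek44, against 2986 in wild type, and its ratio was 23.7 (95% interval 22.8 to 24.5). It held 25.3% of the members' summed RPKM in dek44 and 0.771% of that of all genes. Without it the other members still made up 2.27% of summed RPKM in dek44 and 0.0922% in wild type, and their summed RPKM was again 23.5-fold higher.

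The next 6 members by level also had an RPKM above 1000 in dek44. GRMZM2G135960 had 3028 RPKM in dek44, against 30.3 RPKM in wild type, a 99.9-fold ratio (90.5 to 111), and moved to rank 25 in dek44, against rank 4308 in wild type. GRMZM2G468855 had 2161 RPKM in dek44, against 177 RPKM in wild type, a 12.2-fold ratio (11.8 to 12.7). GRMZM2G468111 had 1723 RPKM in dek44, against 15.1 RPKM in wild type, a 114-fold ratio (86.7 to 153). Genes next to each other in level thus had very different ratios. AC205471.4_FG007 had 1475 RPKM in dek44, against 47.2 RPKM in wild type, GRMZM2G121137 had 1276 RPKM in dek44, against 41.3 RPKM in wild type, and GRMZM2G070199 had 1113 RPKM in dek44, against 72.5 RPKM in wild type. Their ratios were 31.3 (27.0 to 36.3), 30.9 (27.4 to 34.9) and 15.3 (14.0 to 16.8) in that order. The 7 members above 1000 held 52.2% of the members' summed RPKM in dek44, and the 20 most abundant held 73.6%. Across the 74 members, Spearman's rho was -0.0054 between dek44 RPKM and fold and 0.665 between dek44 RPKM and wild-type RPKM; these describe genes of the same pair of libraries, and the thresholds restrict both values.

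**Figure D2:**
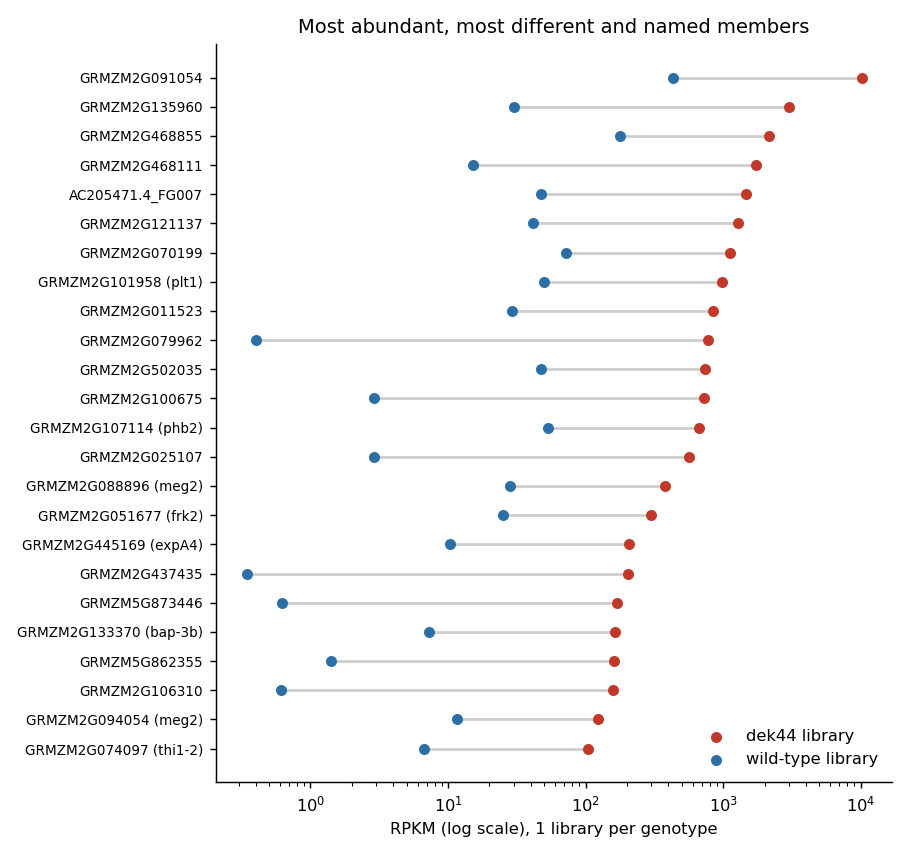
RPKM on a logarithmic axis in the dek44 library (red) and the wild-type library (blue) for 24 members: the 12 most abundant in dek44, the 8 with the highest ratio and those with a name. Each grey line joins the 2 values of a gene; GRMZM2G091054 lies highest in both libraries, and GRMZM2G079962 spans the longest distance, at 780 RPKM in dek44, against 0.399 RPKM in wild type.

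The ratios spread widely. The median was 21.5, with quartiles of 14.2 and 54.3, and the numbers of members were 34 from 10 to under 20, 21 from 20 to under 50, 10 from 50 to under 100 and 9 at 100 or more. The highest ratio was that of GRMZM2G079962, at 780 RPKM in dek44, against 0.399 RPKM in wild type. Its smallest recovered reads were 2117 in dek44 and 1 in wild type, so the ratio of 1953 had an interval of 350 to 77176. GRMZM2G437435 followed, at 205 RPKM in dek44, against 0.343 RPKM in wild type, a ratio of 598 (303 to 1386) from 5186 reads in dek44 and 8 in wild type. These genes were close to the detection limit in wild type, and their wild-type level is known only roughly.

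Better measured large ratios came from genes with more wild-type reads. GRMZM2G100675 had 731 RPKM in dek44, against 2.88 RPKM in wild type, 254-fold (177 to 379) with 29 wild-type reads. GRMZM2G025107 had 565 RPKM in dek44, against 2.91 RPKM in wild type, 194-fold (150 to 255) with 58 wild-type reads. Those wild-type levels nearly coincided, while the dek44 levels differed by less than 200 RPKM. GRMZM5G873446 (169 in dek44, 0.621 in wild type), GRMZM2G106310 (158 in dek44, 0.613 in wild type) and GRMZM5G862355 (161 in dek44, 1.41 in wild type) also passed 100-fold. Their intervals began at 125, 110 and 65.3 in that order, so the interval of GRMZM5G862355 reached under 100. In all, 7 members had smallest recovered reads of at most 10 in wild type, and true reads may be multiples of these.

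**Figure D3:**
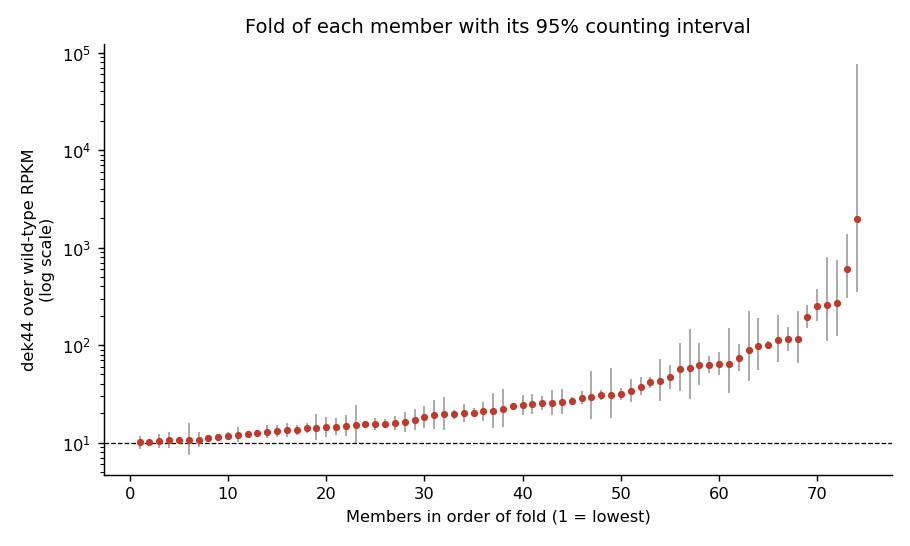
Ratio of dek44 to wild-type RPKM (logarithmic axis) for the 74 members in order of ratio, with 95% counting intervals from the smallest recovered reads and a dashed line at 10. Intervals widen to the right, where wild-type reads are few, and the highest ratio, 1953, has the widest, 350 to 77176.

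At the lower edge, the ratio threshold cut through a continuous range. The 8 lowest ratios lay between 10.02 (GRMZM2G121221, 105 RPKM in dek44, against 10.5 RPKM in wild type) and 11.3 (GRMZM2G346455, 377 RPKM in dek44, against 33.5 RPKM in wild type). Between them were GRMZM2G067242 (244 in dek44, 23.96 in wild type), GRMZM2G058703 (268 in dek44, 25.9 in wild type), GRMZM2G171476 (201 in dek44, 19.1 in wild type), GRMZM2G042008 (304 in dek44, 28.9 in wild type), GRMZM2G094054 (124 in dek44, 11.6 in wild type) and GRMZM2G479684 (222 in dek44, 20.6 in wild type). For 8 of the 74 members the interval reached below 10, and for 66 it did not. These 8 were not the same set as the 8 lowest ratios. They included AC196417.3_FG008, with a ratio of 15.1 (9.93 to 24.1), but not GRMZM2G346455 (10.5 to 12.1). Just outside by ratio were the histone gene H4C13 (GRMZM2G149178, 283 RPKM in dek44, against 28.4 RPKM in wild type), GRMZM5G864735 (104 RPKM in dek44, against 10.5 RPKM in wild type) and GRMZM5G891837 (206 RPKM in dek44, against 20.8 RPKM in wild type), with ratios of 9.95, 9.95 and 9.91.

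The level threshold likewise had near neighbours. Just inside were GRMZM2G063975 at 104.4 and thi1-2 (GRMZM2G074097) at 104.8 in dek44. Just outside were the glutathione S-transferase gene GST3, also named gst4 (GRMZM2G146246, 99.5 RPKM in dek44, against 9.69 RPKM in wild type), GRMZM2G137321 (98.7 RPKM in dek44, against 5.07 RPKM in wild type) and the replication clamp gene pcna1 (GRMZM2G030523, 96.7 RPKM in dek44, against 6.67 RPKM in wild type). A further gene, GRMZM2G075315, had 108 RPKM in dek44 from 732 reads and is listed at 0 in wild type, which kept it out.

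The median gene also had a higher RPKM in dek44. On the log2(RPKM + 1) scale, the median log2 ratio of 30136 expressed genes was 0.62, a factor of 1.54. With the plain RPKM ratios divided by that factor, 50 of the 74 members were still at least 10-fold higher in dek44. With a trimmed mean of the plain log ratios set to 0, 46 were, and with the sum of RPKM outside the named zeins made equal, 65 were.

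Of the 74 members, 42 matched a gene of the RefSeq table and 8 carried a name. A name was carried by 10.8% of the members, by 17.2% of 1917 other genes with a dek44 RPKM of at least 100 and by 5.63% of the whole table. These 8 members, and the genes that share their name stems, are described by role. The 11 relatives were chosen by name stem among genes outside the group, leaving out those set aside by name. A relative that met the thresholds would be a member, so the thresholds shaped this set too. Of 9 expressed relatives, 5 were higher in dek44 and 2 lower by 2-fold or more on the log2(RPKM + 1) scale, where 31.6% of all expressed genes were higher and 3.7% lower. Once the median ratio of expressed genes was set to 0, 4 were higher and 3 lower. THIM (GRMZM2G094558), which shares the name stem only, was the gene no longer higher by 2-fold at that scaling. Over all expressed genes that scaling gave 12.3% higher and 10.9% lower. With 9 relatives, neither a difference from the background nor its absence can be read.

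Prohibitins form ring-like scaffolds in the inner mitochondrial membrane. The member phb2 (GRMZM2G107114) had 671 RPKM in dek44, against 53.7 RPKM in wild type, and was 12.5-fold higher (11.7 to 13.4). Its relative phb3 (GRMZM2G410710) had 54.9 RPKM in dek44, against 6.41 RPKM in wild type, and was 8.57-fold higher (7.07 to 10.5). The relative phb1 (GRMZM2G134955) had 195 RPKM in dek44, against 118 RPKM in wild type, and was 1.65-fold higher (1.49 to 1.83). The median factor of all expressed genes, on the log2(RPKM + 1) scale, was 1.54. The order of the prohibitins therefore differed between libraries: phb2 was the most abundant in dek44, and phb1 was the most abundant in wild type.

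Fructokinases phosphorylate the fructose released when sucrose is cleaved. The member frk2 (GRMZM2G051677) had 299 RPKM in dek44, against 25.3 RPKM in wild type, and was 11.8-fold higher (10.8 to 12.9). Its relative frk1 (GRMZM2G086845) had 15.3 RPKM in dek44, against 20.7 RPKM in wild type, a ratio of 0.74 (0.639 to 0.856). In wild type the pair had nearly equal levels, whereas in dek44 they lay far apart.

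Alpha expansins loosen cell walls during growth. The member expA4 (GRMZM2G445169) had 207 RPKM in dek44, against 10.4 RPKM in wild type, and was 19.96-fold higher (16.1 to 25.1). The relatives went the other way. The gene expa2 (GRMZM2G105844) had 32.0 RPKM in dek44, against 79.9 RPKM in wild type, a ratio of 0.401 (0.365 to 0.441), and EXPA5 (GRMZM2G361064) had 0.652 RPKM in dek44, against 3.91 RPKM in wild type, a ratio of 0.167 (0.0846 to 0.303). The gene expa1 (GRMZM2G339122) was under an RPKM of 1 in both libraries.

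Phospholipid transfer proteins are small secreted proteins that bind lipids. The member plt1 (GRMZM2G101958) had 978 RPKM in dek44, against 49.9 RPKM in wild type, and was 19.6-fold higher (17.7 to 21.8), the highest level of any named member in dek44. Its relative plt2 (GRMZM2G010868) had 220 RPKM in dek44, against 40.8 RPKM in wild type, and was 5.40-fold higher (4.38 to 6.72). The pair had similar levels in wild type and differed in dek44.

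Peptides of the basal transfer layer accounted for 3 members. The name meg2, of a family of small cysteine-rich peptides first known for expression from the maternal allele, belongs to a pair of identifiers. GRMZM2G088896 had 377 RPKM in dek44, against 28.0 RPKM in wild type, and was 13.5-fold higher (11.4 to 15.98), and GRMZM2G094054 had 124 RPKM in dek44, against 11.6 RPKM in wild type, and was 10.7-fold higher (7.42 to 15.8). Both match 1 RefSeq gene, so reads may have been split between them. The basal layer antifungal peptide gene bap-3b (GRMZM2G133370) had 162 RPKM in dek44, against 7.32 RPKM in wild type, and was 22.2-fold higher (14.5 to 35.7). Its relatives bap2 (GRMZM2G152655) and bap-1a (GRMZM2G008271) were more abundant in both libraries and had smaller ratios. The first had 1430 RPKM in dek44, against 154 RPKM in wild type, and was 9.26-fold higher (8.65 to 9.92), and thus missed the ratio threshold. The other had 499 RPKM in dek44, against 80.6 RPKM in wild type, and was 6.19-fold higher (5.62 to 6.83).

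Other transfer layer markers were also higher in dek44. Outside the group the list had 5 matched genes, none at 0, with a summed RPKM of 2029 in dek44, against 248 in wild type, and 4 of 4 expressed ones were at least 2-fold higher in dek44, bap2 among them, beside 31.6% of all expressed genes. Once the median ratio of expressed genes was set to 0, it was 3 of 4, beside 12.3% of all expressed genes. The marker no longer past 2-fold was MRP1 (GRMZM2G113203), at 1.89 RPKM in dek44, against 0.368 RPKM in wild type. The marker betl1c was at 0.694 RPKM in dek44, against 0.564 RPKM in wild type, so this defining gene was near 0 in both. Both matched markers of the embryo-surrounding region were at least 2-fold higher, beside the same 31.6% of all expressed genes, with a summed RPKM of 118 in dek44, against 8.27 in wild type. Lists of 4 and 2 genes are too short to be set apart from that background. Whether the share of these cell types in the tissue has a part in the ratios of the members was not tested.

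The thiazole synthase of vitamin B1 formation is encoded by thi genes. The member thi1-2 (GRMZM2G074097) had 105 RPKM in dek44, against 6.66 RPKM in wild type, and was 15.7-fold higher (13.3 to 18.7). Its relative thi1 (GRMZM2G018375) was under an RPKM of 1 in both libraries. THIM (GRMZM2G094558), which shares the name stem only, had 7.11 RPKM in dek44, against 2.68 RPKM in wild type, and was 2.65-fold higher (1.89 to 3.78). Nearly all transcripts of the thi1 pair thus came from the member in either library.

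**Figure D4:**
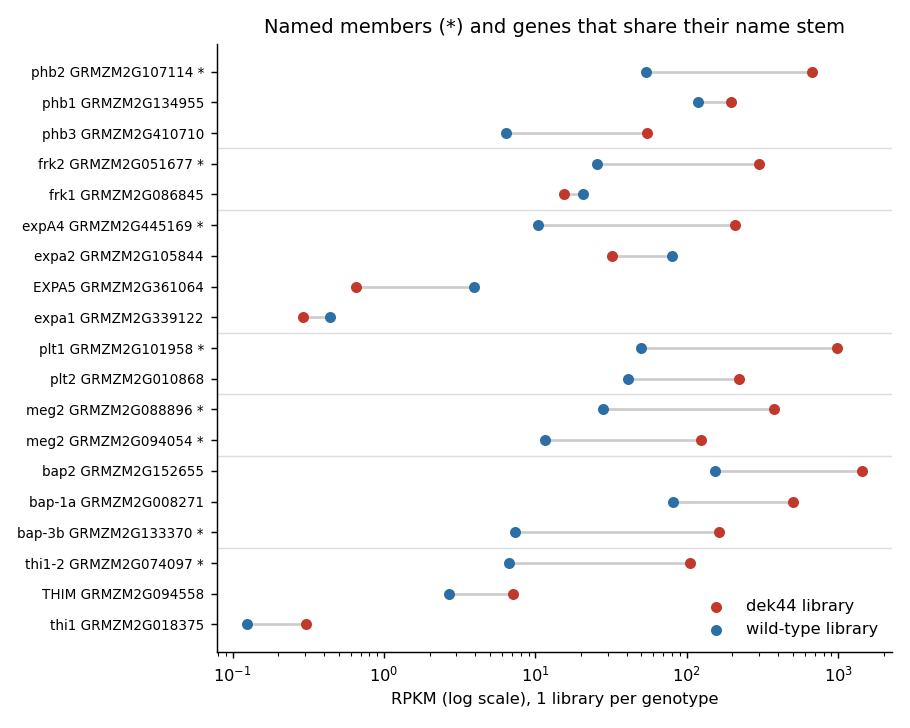
RPKM on a logarithmic axis in the dek44 library (red) and the wild-type library (blue) for the 8 named members, marked with an asterisk, and 11 genes that share their name stems, grouped by family. The members lie to the right in dek44 by definition; the relatives went both ways, with phb3, plt2, bap2 and bap-1a higher in dek44 and expa2 and EXPA5 lower.

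Another pair of members shared 1 RefSeq gene, which has no name. GRMZM2G131228 had 118 RPKM in dek44, against 3.80 RPKM in wild type, and was 30.9-fold higher (17.9 to 58.6), and GRMZM2G165069 had 113 RPKM in dek44, against 2.63 RPKM in wild type, and was 42.9-fold higher (27.0 to 72.7). Their levels were close in both libraries, and reads may have been shared between them. In the other direction, GRMZM2G011523, at 844 RPKM in dek44, against 29.4 RPKM in wild type, matched 2 RefSeq genes, so its 28.7-fold ratio (24.7 to 33.6) may stand for more than 1 locus. Among the most abundant members was also GRMZM2G502035, at 743 RPKM in dek44, against 47.4 RPKM in wild type, a ratio of 15.7 (14.0 to 17.6). The remaining 41 members had a dek44 RPKM of 104 to 648, with a median of 199, and a wild-type RPKM of 1.12 to 40.2, with a median of 8.88. Their ratios ran between 11.3 and 112, with a median of 24.3.

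Members tended to be short gene models, a feature the rule did not use directly, although RPKM is itself a value per length. The median of the smallest length that gives whole reads was 358 bases over the 74 members. It was 481 bases over 1917 other genes with a dek44 RPKM of at least 100, and 696 bases over all expressed genes. Lengths under 400 bases were found for 47 members, or 63.5%, and for 740 of the other abundant genes, or 38.6%. Over all expressed genes they were found for 9188, or 30.5%. True lengths may be multiples of these. No test was made, because genes of 1 pair of libraries are not replicates.

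Across abundant genes, with those set aside by name kept in the totals, the share of members was uneven over length. They were 4.21% of 261 genes from 100 to under 200 bases, 6.81% of 529 genes from 200 to under 400, 1.36% of 663 genes from 400 to under 800, 3.68% of 435 genes from 800 to under 1600 and 1.79% of 112 longer genes. Over all expressed genes the median log2 ratio hardly varied with length: it was 0.65 from 100 to under 200 bases, 0.62 from 200 to under 400, 0.64 from 400 to under 800, 0.64 from 800 to under 1600 and 0.56 above. Of the 36 genes at least 10-fold lower in dek44, 17 were under 400 bases, or 47.2%, beside 30.5% of all expressed genes.

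**Figure D5:**
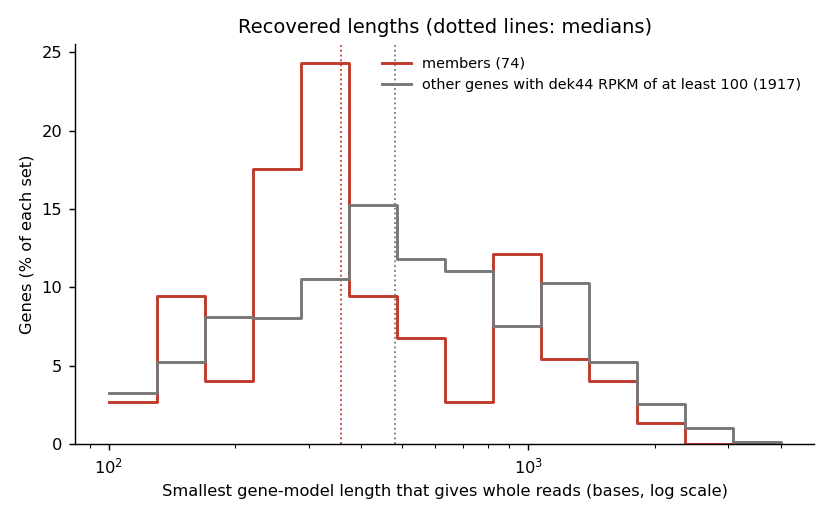
Smallest gene-model length that gives whole reads (bases, logarithmic axis) as percent of each set, for the 74 members (red) and 1917 other genes with a dek44 RPKM of at least 100 (grey), with dotted lines at the medians of 358 and 481 bases. The red curve is highest between about 200 and 400 bases, a range that held 36 members.

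In the gene order of the RefSeq table, 2 pairs of members shared 1 RefSeq gene each. No pair matched to different RefSeq genes lay within 5 protein-coding genes of each other (0 pairs). The member bap-3b was next to bap-3a, which was set aside by name. Of the members, 41 matched exactly 1 RefSeq gene, and 52 expressed genes flanked these within 3 steps. At least 2-fold higher in dek44 were 28 of them, or 53.8%, and 3 were at least 2-fold lower, with a median log2 ratio of 1.03. Among all expressed genes matched to that table, 35.5% were at least 2-fold higher. Of all expressed genes, matched or not, 3.7% were at least 2-fold lower. The flanking genes were not recounted on another scale. They include bap2, which is also counted above among the relatives and the transfer layer markers. Since only 55.4% of the members could be placed, this check is void for the group as a whole and describes the placed genes only.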

How the data were processed

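The authors deposited 1 table of RPKM values per library, per the file headers. Alignment was to B73 RefGen_v3 with Bowtie 0.12.2, per the submitters' processing notes; the sources used here do not give the counting rule, strand use, gene lengths or the treatment of multiply mapped reads, so near-identical, overlapping and antisense genes are uncertain. The members and gene lists were chosen with earlier results of these data known. Library totals and the smallest whole reads per gene were recovered from the deposited values, each being whole reads divided by length and total. All 39505 genes above 0 came out whole in both libraries, within 1e-05 reads plus the rounding of the deposited values, for lengths of 100 to 20000 bases. On simulated data, 3 of 3 pairs of library totals were recovered. The smallest length was the true one for 83.5% of 1993 abundant genes. The simulation left out the shortest lengths, so it does not cover the shortest members. The sums of smallest reads reached 87.7% of the dek44 total and 84.7% of the wild-type total, so read shares are lower bounds. Ratios of single genes are of plain RPKM. Counts of genes at least 2-fold apart, and median log2 ratios over sets of genes, use log2(RPKM + 1). Named were all members with a name, the 12 most abundant, the 8 highest and 8 lowest ratios, members sharing a RefSeq gene, and the 3 genes nearest outside each threshold. The gene table is of another assembly (Zm-B73-REFERENCE-NAM-5.0) and served for names and gene order only: 16688 of 41406 identifiers (40.3%) matched. Marker symbols that matched a gene were 10 of 11 for starchy endosperm (bt2 matched none) and 8 of 12 for the transfer layer. They were 3 of 4 for the embryo-surrounding region, 6 of 8 for aleurone, 6 of 9 for embryo and 2 of 7 for green tissue. Protein and promoter sequences were not used here, so the planned search for relatives by protein identity and for promoter motifs was not run. Python 3.11.15, numpy 2.4.6, pandas 2.3.3 and scipy 1.17.1 were used.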

Additional observations from a re-analysis of the deposited data

How the results depend on the processing

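The group depends on its thresholds: it had 74 members as reported, 138 with a dek44 RPKM of at least 50, 44 with at least 200, 195 with a ratio of at least 5 and 40 with at least 20. Scaling mattered too, with 46 members when the trimmed mean of log ratios was set to 0. Every scaling changed the ratio only, while the level threshold of 100 stayed on the deposited RPKM. Counts with the level rescaled as well were not made and could only be equal or lower. A pseudocount of 1 (71), a wild-type RPKM of at least 1 (70), the lower interval end at 10 or more (66) and the other scalings (50 to 65) kept the count within 1.5 times. The members' share of summed RPKM in dek44, 3.04%, was 3.16% without the named zeins, 4.14% without the 100 most abundant other genes, 2.27% without GRMZM2G091054, 1.86% in recovered reads and 3.29% with the genes set aside by name, an alternative chosen after seeing the data. The numbers of genes past 2-fold, 9529 higher and 1116 lower in dek44, became 4192 higher and 543 lower with a pseudocount of 5, 3703 higher and 3284 lower once the median ratio was set to 0, and 3053 higher and 4090 lower by the trimmed mean. Of the 33 named members, the log2 ratio moved by more than its counting interval for 0 with a pseudocount of 0.1, 4 with 1, 22 with 5 and 26 with the median ratio set to 0. Depth limits the 7 members with smallest recovered reads of at most 10 in wild type. No paired analysis was possible because there was only 1 library of each kind, and leaving out a replicate was not possible either. Relatives by protein identity were not run.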
